A study of Mus musculus with 12 samples.

Results

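The C/EBP (CCAAT/enhancer binding protein) family was followed through 12 RNA-seq libraries from an experiment on esculetin, a plant coumarin. Its 6 members were taken by gene identifier, Cebpa, Cebpb, Cebpd, Cebpe, Cebpg and Cebpz, out of 55357 identifiers in each of the liver and cell count tables. All 6 passed the filter on low counts in both tables. The libraries fell into 4 groups of 3. Liver RNA came from wild-type male C57BL6/J mice aged 8 to 9 weeks. They received 90 mg/kg/d of esculetin in 2.5% Tween-80 or, as control, this vehicle alone by gavage over 7 days. Both liver groups were fed a 10% kcal fat diet during the first 4 days and a 60% kcal fat diet during the last 3. The other groups were RAW264.7 cells, a wild-type mouse macrophage line and thus 1 line in culture, held for 24 h with 25 µg/mL of oxidized low-density lipoprotein that carried the dye DIL (oxLDL), with 40 µg/mL of esculetin or with its solvent DMSO. The study states that each liver sample pooled 2 mice. The study proposed Cebpb as a mediator of the action of esculetin, and the comparison asks how each member of the family stood with and without it.

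C/EBP proteins bind DNA as dimers through a basic region and a leucine zipper (bZIP), and members can pair with each other and with other bZIP factors. Cebpa encodes C/EBPα, which maintains the differentiated state of hepatocytes and drives myeloid differentiation. Cebpb and Cebpd encode C/EBPβ and C/EBPδ, which are induced by cytokines and hormones and act in the acute-phase response of the liver and in macrophage activation. Cebpe encodes C/EBPε, a factor of late granulocyte differentiation, and Cebpg encodes C/EBPγ, a short partner without a strong activation domain. Cebpz carries the family name but is not a bZIP gene, since its product belongs to a group of proteins of ribosome assembly. The protein called C/EBPζ is encoded by Ddit3 (also known as CHOP), a stress-induced partner of the family, and Ddit3 is therefore given beside the members.

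On the mouse build GRCm39, Cebpb (ENSMUSG00000056501) lies on chromosome 2 from 167530835 to 167532338 on the plus strand, as 1 exon of 1504 bases. Cebpa (ENSMUSG00000034957, chromosome 7, 34818718 to 34821353, plus strand) and Cebpd (ENSMUSG00000071637, chromosome 16, 15705150 to 15708895, plus strand) are also annotated as 1 exon block each. Cebpg (ENSMUSG00000056216) lies near Cebpa on chromosome 7, from 34745847 to 34756011 on the minus strand. Cebpe (ENSMUSG00000052435) is on chromosome 14 from 54947817 to 54949631, minus strand, and Cebpz (ENSMUSG00000024081) on chromosome 17 from 79226433 to 79244514, minus strand.

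Sequence before the start site is shown for the 3 members with an entry in the RefSeq promoter table: Cebpb, which rose in the cells, Cebpg, which fell there, and Cebpa, the most abundant member in the liver. RefSeq gives them for GRCm38.p6, and each sequence was found at 1 place in GRCm39, whose coordinates are used here. The table gives 250 bases before the RefSeq start. For Cebpg the last 20 of them lie inside the first exon that GENCODE annotates, so the 230 bases before it are printed. Of the bases printed, 143 of Cebpg lie in exons of Gm57192 and 87 of Cebpa in exons of Gm45091. Capitals mark TGACG, the core of the cAMP response element, in Cebpb (CGTCA where it is read from the other strand), the CCAAT box in Cebpg (ATTGG from the other strand) and, in Cebpa, the TATA box with the letters TATAAA.
Cebpb, chr2:167530585-167530834, plus strand: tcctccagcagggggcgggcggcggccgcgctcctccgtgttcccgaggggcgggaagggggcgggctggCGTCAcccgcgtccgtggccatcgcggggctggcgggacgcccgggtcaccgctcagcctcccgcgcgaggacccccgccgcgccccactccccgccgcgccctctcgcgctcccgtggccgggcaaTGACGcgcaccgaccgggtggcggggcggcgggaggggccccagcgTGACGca
Cebpg, chr7:34756012-34756241, minus strand: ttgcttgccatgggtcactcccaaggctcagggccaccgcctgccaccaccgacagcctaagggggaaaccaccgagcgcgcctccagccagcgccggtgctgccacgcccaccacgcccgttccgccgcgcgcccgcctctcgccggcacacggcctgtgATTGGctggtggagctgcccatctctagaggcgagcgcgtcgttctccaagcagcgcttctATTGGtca
Cebpa, chr7:34818468-34818717, plus strand: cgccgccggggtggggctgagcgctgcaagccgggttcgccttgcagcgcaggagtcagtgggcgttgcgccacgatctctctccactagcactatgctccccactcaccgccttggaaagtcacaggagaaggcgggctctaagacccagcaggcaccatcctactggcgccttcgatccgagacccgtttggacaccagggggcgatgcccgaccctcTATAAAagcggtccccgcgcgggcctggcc

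Over the 250 bases before the start, TGACG was found on either strand in 17.8% of 32851 promoters of the table, and 3 or more copies in 0.688%. The Cebpb stretch held 3 copies, at 180 to 176, 53 to 49 and 7 to 3 bases before the start, and 81.6% of its bases were G or C. The Cebpg stretch held 2 CCAAT boxes, at 69 to 65 and 8 to 4 bases before the annotated start (89 to 85 and 28 to 24 before that of RefSeq), against 10.1% of promoters with 2 or more in their 250 bases. The Cebpa stretch held TATAAA at 30 to 25 bases, a match that 12.4% of promoters had. The C/EBP site searched, TTNNGNAA on either strand, was present in 36.8% of promoters and was not matched in these 3 stretches. Matches of letters are a description and were not tested for binding.

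Total counts ran from 14659876 to 20346460 in the liver libraries and from 13752842 to 20001959 in those of the cells. Replicates varied by a common coefficient of 16.5% (liver) and 11.8% (cells). Labelled tissue and line held their defining markers. All 8 hepatocyte markers were detected in the liver, with summed levels of 122200 to 152400 CPM (counts scaled to library size with TMM factors), and these markers summed to at most 1.35 CPM in the cells. All 8 macrophage markers were detected in the cells. Of 6 Kupffer cell markers, Clec4f, Timd4, Vsig4, Marco and Cd163 were at 0 in the 3 control cell libraries.

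The makeup of the family differed between liver and cells (levels per length, as CPM per kilobase of exons, with scaling factors over all 12 libraries). In the control livers Cebpa stood at 279 ± 38.5 (SD, n = 3), and its libraries read 240, 280 and 317. Cebpb followed at 68.1 ± 14.6, with 51.3, 78.1 and 74.8. The other members lay far lower, Cebpg at 7.80 ± 0.748, Cebpe at 5.77 ± 0.252, Cebpd at 4.18 ± 1.40 and Cebpz at 3.50 ± 1.04. The libraries of Cebpe and Cebpd, and those of Cebpd and Cebpz, overlapped. Within each library Cebpe still stood above Cebpd (5.75, 5.53 and 6.04 against 3.28, 3.46 and 5.80). The order of Cebpd and Cebpz varied between the libraries.

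In the control cells Cebpb was the most abundant member at 15.9 ± 0.988 CPM per kilobase, with libraries of 14.7, 16.4 and 16.5. Cebpz came next at 7.12 ± 1.06 and Cebpg at 6.15 ± 0.827, and their libraries overlapped. Within each control library Cebpz was the higher of them (8.35, 6.45 and 6.56 against 7.01, 5.36 and 6.07). Cebpe stood at 1.40 ± 0.143 and Cebpd at 1.22 ± 0.0953. Cebpa was the lowest member in the cells, at 0.578 ± 0.139, where its libraries held 60, 44 and 39 counts. Its control level was 483-fold higher in the liver than in the cells with factors over all libraries and 186-fold higher by library size alone. For Cebpg that ratio of liver to cells was 1.27 with the factors and 0.494 by library size alone, so its direction depended on the scaling. Cebpz was higher in the cells under both, 2.03-fold and 5.19-fold.

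As shares of the summed level per length of the 5 bZIP members, which need no scaling between libraries, Cebpa held 76.5% ± 1.53 in control livers and 68.1% ± 1.77 with esculetin. Cebpb held 18.5% ± 2.15 and 26.8% ± 1.96, and for both genes the liver groups did not overlap (Cebpa 74.8% to 77.7% against 66.2% to 69.7%). In the cells the share of Cebpb went from 62.9% ± 4.19 to 81.3% ± 1.73, and that of Cebpg from 24.4% ± 3.09 to 9.76% ± 1.12, again without overlap. Cebpd held 4.84% and 3.76% of the sum in the cells and Cebpa 2.29% and 1.88%. Shares are bound to each other, since the rise of one lowers the rest.

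**Figure D1:**
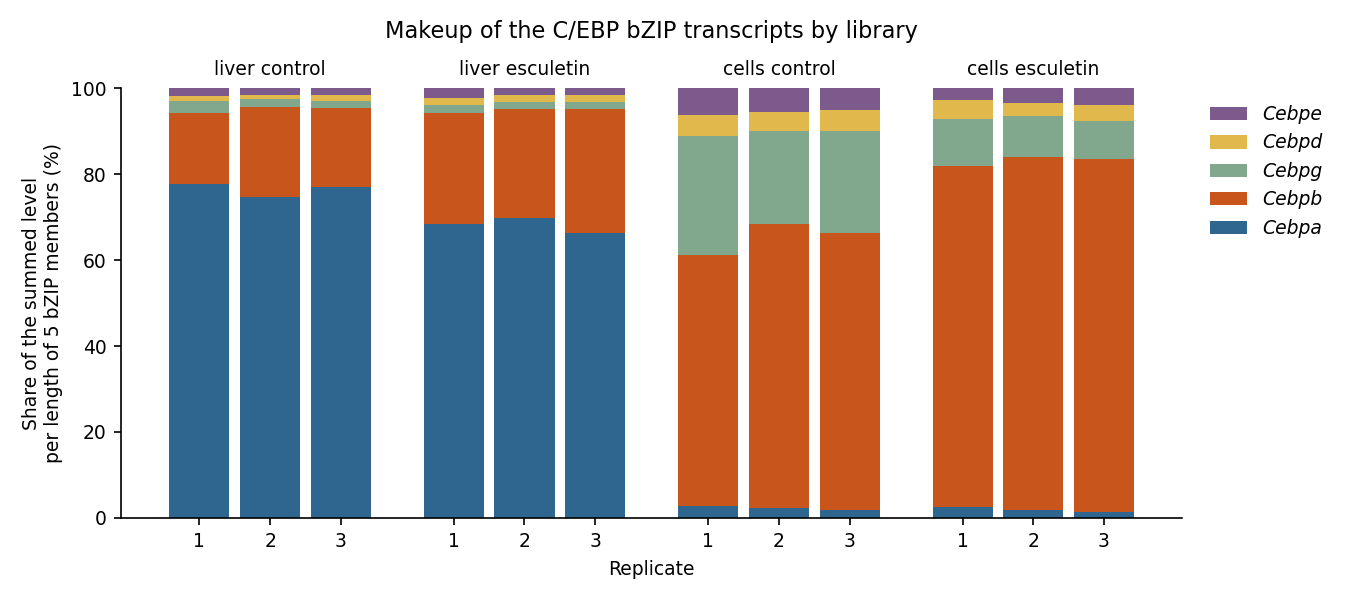
Share (%) of each of 5 bZIP members in their summed level per length, 1 bar per library, 3 replicates in each of the 4 groups. Cebpa fills most of every liver bar, 66.2% to 77.7%, and Cebpb most of every bar of the cells, with means of 62.9% in controls and 81.3% with esculetin.

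In the livers, Cebpb and Cebpd stood higher with esculetin in every library, but no member passed the adjusted threshold. None of 6 members was called (adjusted p under 0.05 by the edgeR quasi-likelihood test with Benjamini-Hochberg adjustment), where 0.0859% of 12813 tested genes were. At an unadjusted p under 0.05 there were 2 members, Cebpb and Cebpd, where 8.37% of all tested genes lay. The groups did not overlap for 4 members, Cebpb, Cebpd and Cebpe higher and Cebpg lower, against 14.5% of all tested genes (6.52% with esculetin higher). By the criterion of the study (limma-voom, unadjusted p under 0.05 and fold over 1.5), Cebpb and Cebpd passed, as did 3.89% of tested genes.

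Cebpb read 47.8, 74.3 and 69.98 CPM in the control livers and 97.6, 96.9 and 120.5 CPM with esculetin. Each esculetin library lay above each control. The log2 fold change was 0.71 (SE 0.17, 95% interval 0.35 to 1.07, unadjusted p = 0.00101, edgeR adjusted p = 0.209). In the order of p-values Cebpb took place 61 of 12813 genes, and 1.69% of tested genes had a larger rise. DESeq2 gave an adjusted p of 0.0102 for it, and edgeR without a filter on low counts 5.94e-05. Cebpb passed in 4 of 15 alternatives. Among the 11 in which it did not were limma-voom (adjusted p = 0.22) and every fit without 1 library. In those fits the edgeR adjusted p reached 0.823 without esculetin replicate 3, and the log2 fold change was 0.545 without control replicate 1.

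Cebpd read 7.62, 8.19 and 13.5 CPM in the controls against 15.6, 14.2 and 17.3 CPM. Its groups lay apart as well, with control replicate 3 the nearest. The log2 fold change was 0.69 (SE 0.21, 95% interval 0.22 to 1.15, edgeR adjusted p = 0.376). DESeq2 gave an adjusted p of 0.175 and edgeR without a filter on low counts 0.0201. Cebpe, a factor of the granulocyte lineage, was at 4.42, 4.34 and 4.66 CPM and at 6.92, 5.26 and 5.50 CPM with esculetin (log2 fold change 0.40, SE 0.20, edgeR adjusted p = 0.636).

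Cebpa, the main liver member, read 392, 467 and 520 CPM in controls and 453, 465 and 482 CPM with esculetin. The esculetin livers lay within the range of the controls. Its log2 fold change was 0.02 with a 95% interval of -0.26 to 0.31 (edgeR adjusted p = 0.977), and the estimate fell below 0 by library size alone (-0.03), without control replicate 1 (-0.08) and without esculetin replicate 3 (-0.01).

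Cebpg read 30.2, 25.95 and 26.2 CPM against 25.4, 24.1 and 23.2 CPM (log2 fold change -0.18, SE 0.13, edgeR adjusted p = 0.732). Cebpz read 16.3, 9.42 and 11.3 CPM against 8.77, 10.8 and 9.25 CPM, where control replicate 1 stood apart from its group (log2 fold change -0.36, SE 0.21, edgeR adjusted p = 0.668). Ddit3 went from 7.05 ± 0.645 to 5.50 ± 1.17 CPM (log2 fold change -0.36, edgeR adjusted p = 0.668).

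Liver is a mixture of cells, and in bulk samples fewer cells of a type and less RNA per cell cannot be told apart. Over 8 macrophage markers the summed level ran from 147 to 190 CPM in control livers and from 152 to 164 CPM with esculetin, and Lyz2 made up much of it (72.1 and 77.8 CPM on average). Only 2 of the 7 tested markers, Lyz2 and Cd14, lay above 0, with a median log2 fold change of -0.28. Cd68 (-0.50), Adgre1 (-0.31) and Csf1r (-0.28) were lower without overlap, and none of the 7 was called (edgeR, Benjamini-Hochberg), with 2 at an unadjusted p under 0.05. For 6 Kupffer cell markers it ran from 293 to 332.9 and from 264 to 303 CPM, and for 5 adipocyte markers from 4.24 to 25.5 and from 7.79 to 39.8 CPM. The ranges of these sums overlapped, while the Kupffer cell marker Marco, at 4.34 ± 0.356 CPM and at 2.54 ± 0.320 CPM with esculetin, was lower without overlap (log2 fold change -0.77, edgeR adjusted p = 0.364). Neutrophil markers, 6 of 8 detected with Ly6g and Mpo at 0, went from 2.74 to 3.38 CPM down to 2.02 to 2.52 CPM. The pancreas list came down to Cela1, at 16.2 to 25.1 CPM in controls and 25.5 to 30.8 CPM with esculetin (log2 fold change 0.48, edgeR adjusted p = 0.481), since Amy2b was at 0 and Prss2 and Cpa1 held at most 2 counts in any liver library. Summed levels of lymphocyte, endothelial and stellate, cholangiocyte and blood markers overlapped between the groups. The cholangiocyte marker Sox9, at 6.13 CPM and at 3.74 CPM with esculetin, was lower without overlap (log2 fold change -0.70, edgeR adjusted p = 0.4775). The part of other cells in the liver values was not tested.

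**Figure D2:**
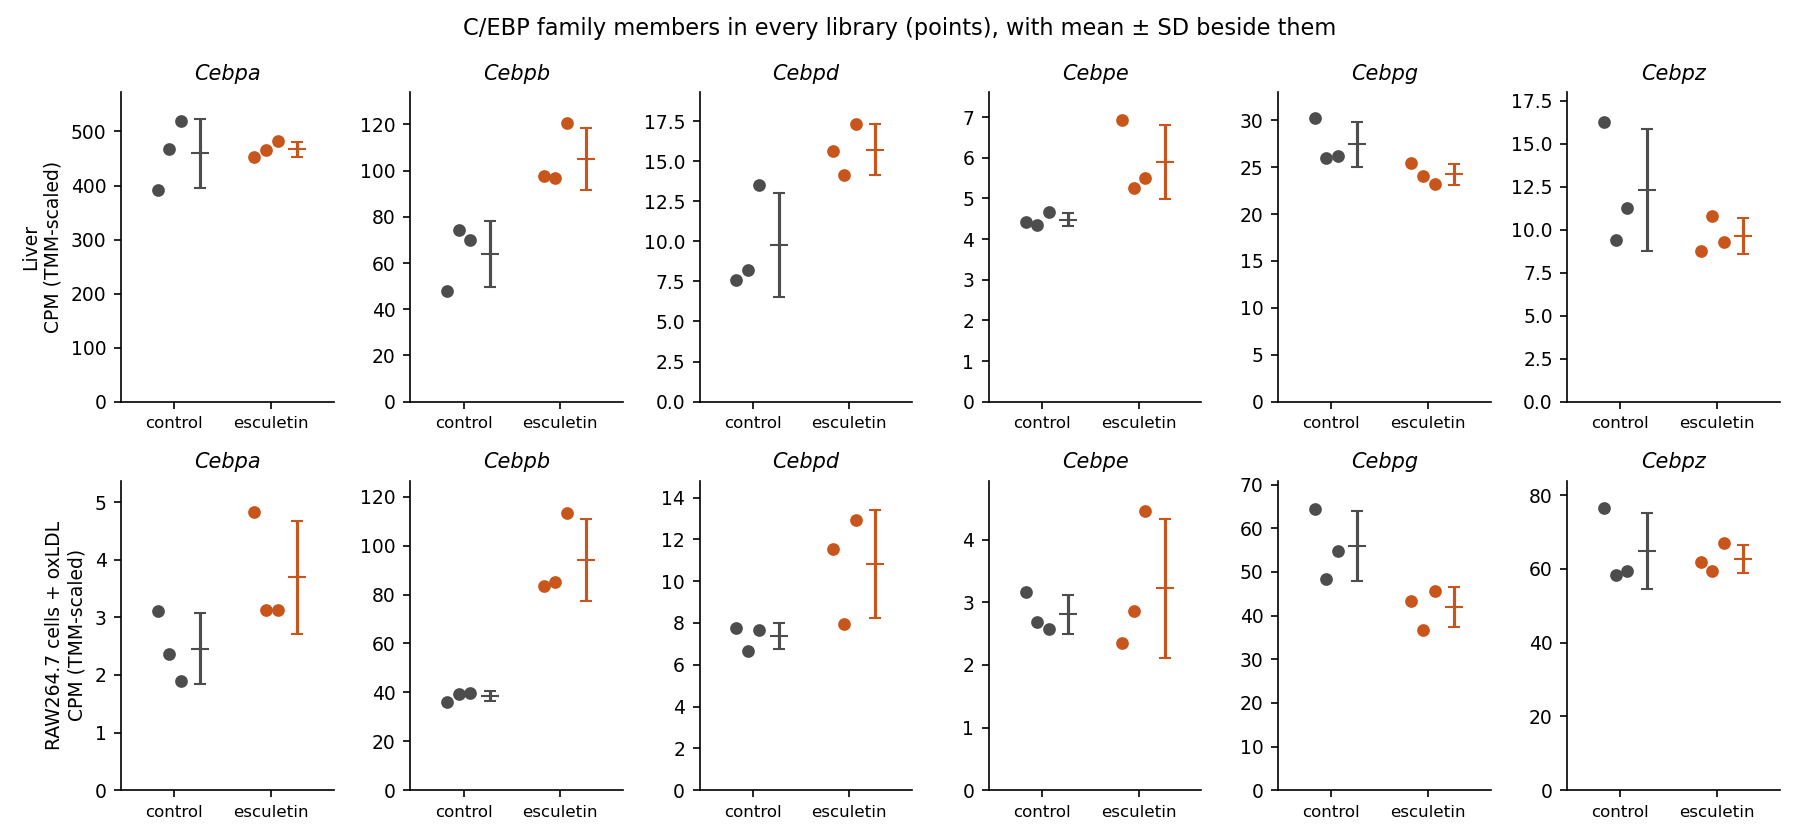
TMM-scaled CPM of each member in every library (points, replicates 1 to 3 from left to right) with mean ± SD over 3 libraries beside them, liver above and oxLDL-treated RAW264.7 cells below, each axis from 0. Cebpb with esculetin lies above all controls in both rows, 96.9 to 120.5 against 47.8 to 74.3 CPM in the liver and 83.4 to 113.4 against 36.1 to 39.8 CPM in the cells.

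In the oxLDL-treated cells 3 of 6 members were called, Cebpb and Cebpd higher and Cebpg lower. Over all 13277 tested genes 57.7% were called, 28.7% higher and 29% lower, so the share among the members was near the background. Groups without overlap were found for 4 members, Cebpa, Cebpb, Cebpd and Cebpg, and for 64.1% of all tested genes (31% with esculetin higher). With limma-voom and the thresholds of the study 1 member passed, Cebpb, as did 38% of tested genes. These are more genes than the study reported for the cells, so the criterion used here is not an exact repeat of its own.

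Cebpb read 36.1, 39.5 and 39.8 CPM in the controls and 83.4, 85.3 and 113.4 CPM with esculetin. The esculetin libraries all stood more than 2-fold above the control mean. Its rise was 2.45-fold, or 1.29 on the log2 scale (SE 0.12, 95% interval 1.02 to 1.56, edgeR adjusted p = 6.49e-06), and 7.34% of tested genes rose more. The gene was called in all 15 alternatives, with log2 fold changes from 1.13 to 1.37.

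Cebpd read 7.78, 6.67 and 7.69 CPM against 11.6, 7.97 and 12.9 CPM. Esculetin replicate 2 lay only just above the controls. On the log2 scale it rose by 0.56 (SE 0.19, edgeR adjusted p = 0.0247). Leaving out 1 library ended the call for 4 of 6 libraries, with adjusted p-values of 0.056, 0.0889 and 0.0523 without control replicates 1, 2 and 3 and 0.0902 without esculetin replicate 3.

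Cebpg read 64.3, 48.4 and 54.9 CPM against 43.3, 36.7 and 45.6 CPM. Every esculetin library lay below every control, and the level fell by 0.42 on the log2 scale (SE 0.12, edgeR adjusted p = 0.0132). The call was lost without control replicate 1 (adjusted p = 0.0591) and without esculetin replicate 2 (adjusted p = 0.0718).

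Cebpa was near the lower end of what was tested in the cells, with 3.11, 2.37 and 1.90 CPM against 4.83, 3.14 and 3.12 CPM. The groups were separated by a narrow gap, and the log2 fold change was 0.58 (SE 0.28, 95% interval -0.03 to 1.20, edgeR adjusted p = 0.096). Cebpe read 3.16, 2.69 and 2.58 CPM against 2.34, 2.86 and 4.46 CPM (log2 fold change 0.21, SE 0.28, edgeR adjusted p = 0.533), and without esculetin replicate 3 the log2 fold change was -0.11.

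Cebpz, the ribosome assembly gene, read 76.7, 58.3 and 59.4 CPM against 62.0, 59.5 and 66.9 CPM. Its log2 fold change was -0.04 (95% interval -0.29 to 0.21, edgeR adjusted p = 0.757) and 0.09 without control replicate 1. Ddit3, the CHOP gene, rose from 17.9 ± 0.625 to 27.9 ± 2.34 CPM (log2 fold change 0.65, SE 0.11, edgeR adjusted p = 0.000482). Its control libraries lay between 17.5 and 18.6 CPM and its esculetin libraries between 26.1 and 30.6 CPM.

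Several members share bases with a gene on the opposite strand, and whether reads were counted by strand was not stated. Peds1, which encodes a plasmanylethanolamine desaturase, overlaps 312 bases of the Cebpb exon, 20.7% of it. In the cells Peds1 went from 182 ± 6.20 to 363 ± 21.1 CPM (log2 fold change 0.99, edgeR adjusted p = 2.37e-06), and in the livers from 14.8 ± 0.747 to 16.3 ± 3.27 CPM (log2 fold change 0.14, edgeR adjusted p = 0.852). In the cells Peds1 therefore moved in the same direction as Cebpb, while in the livers its groups overlapped. Spidr shares 563 bases with Cebpd (15.03%), and in the cells its log2 fold change was -0.24 (edgeR adjusted p = 0.0473), opposite to that of Cebpd, though 10 of 15 alternatives ended this call. Cebpzos covers 29.6% of the Cebpz exons and fell in the cells from 5.07 ± 0.240 to 2.80 ± 0.128 CPM (log2 fold change -0.86, edgeR adjusted p = 0.00312). For Ddit3 the shared part was 64.1% with Mars1 and 17.05% with Gm4189. A second Ddit3 identifier on the same strand shares 1.88%. Values of these overlapping genes are not given here. How far overlapping genes enter the values of the members was not tested.

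Liver and cell effects were compared in a model of all 12 libraries, as the effect in the cells minus that in the liver. Between these experiments the dose, the time, the route and the background treatment differed. None of 6 members was called for the difference, where 27.1% of 15709 genes were. For Cebpb the log2 difference was 0.53 (SE 0.22, unadjusted p = 0.028, edgeR adjusted p = 0.0853). Without liver control replicate 1, the library with the lowest Cebpb level of the liver, it was 0.77 (adjusted p = 0.00395), and that of Cebpa, 0.52 (edgeR adjusted p = 0.168) with all libraries, was then 0.67 (adjusted p = 0.0487).

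For Cebpd the log2 difference was -0.17 (95% interval -0.83 to 0.49), for Cebpe -0.23 (-0.94 to 0.48), for Cebpg -0.28 (-0.66 to 0.11) and for Cebpz 0.27 (-0.25 to 0.80). Each of these intervals includes 0 and also differences as large as the effects themselves. That of Cebpd was 0.03 without liver control replicate 1 and 0.01 without cells esculetin replicate 2. Ddit3 did differ, by 0.96 (SE 0.23, 95% interval 0.47 to 1.46, edgeR adjusted p = 0.0057), and this call held in all 18 alternatives. How far reads of Mars1 enter this difference was not tested.

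**Figure D3:**
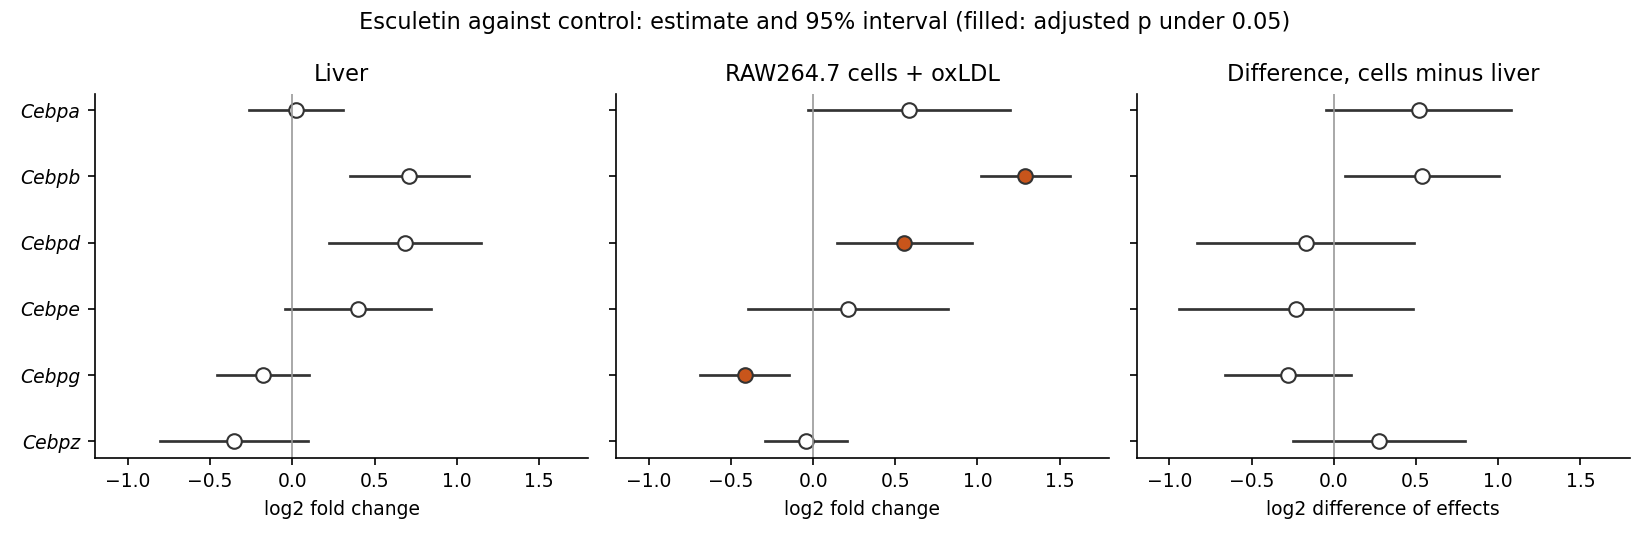
Log2 fold change of each member with esculetin in the liver (left) and in the cells (middle), and the log2 difference of these effects, cells minus liver (right), with 95% intervals from edgeR. Filled points passed an adjusted p of 0.05: Cebpb (1.29), Cebpd (0.56) and Cebpg (-0.42) in the cells, and no member in the liver or for the difference.

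The ratio of Cebpb to Cebpa within a library needs no scaling factor, and both genes encode partners that bind the same sites. Per kilobase it was 0.214, 0.279 and 0.236 in the control livers and 0.377, 0.365 and 0.438 with esculetin. The liver groups did not overlap, and the difference of the log2 ratios was 0.70, or 1.63-fold, with an exact two-sided permutation p of 0.1, the smallest that 3 against 3 libraries allow. In the cells the ratio was 20.2, 29.0 and 36.3 against 30.1, 47.2 and 63.1, where the groups overlapped (log2 difference 0.69, exact permutation p = 0.2). Leaving out 1 library moved the liver value between 0.61 and 0.81 and that of the cells between 0.44 and 0.98.

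**Figure D4:**
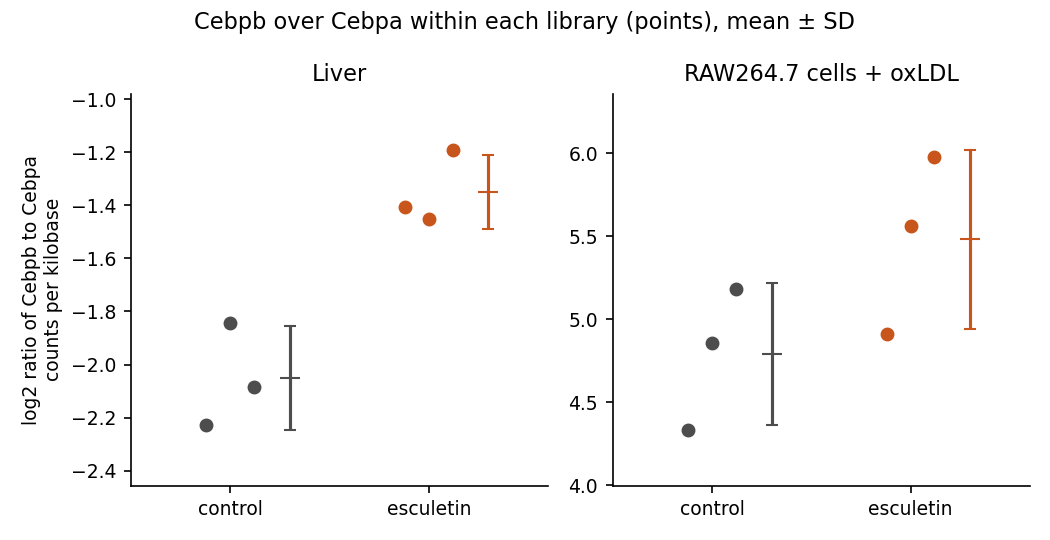
Log2 ratio of Cebpb to Cebpa counts per kilobase in each library (points) with mean ± SD over 3 libraries, liver left and cells right on separate axes that do not start at 0. The means are -2.05 and -1.35 in the liver and 4.79 and 5.48 in the cells, for control and esculetin.

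Among other bZIP factors that pair with C/EBP proteins or bind similar sites, 9 of 12 listed genes were tested in the cells, 3 were called higher and 2 lower (55.6%, against 57.7% of all tested genes), and the median log2 fold change was -0.05. Atf3, a stress-responsive repressor, rose from 58.6, 63.8 and 61.8 CPM to 212, 267 and 276 CPM (log2 fold change 2.03, edgeR adjusted p = 1.55e-07). Dbp, a clock-controlled factor, fell from 27.4, 31.8 and 29.2 CPM to 12.0, 9.68 and 7.86 CPM (log2 fold change -1.59, edgeR adjusted p = 7.39e-06). The other calls, Ddit3 aside, were Batf2 (1.07) and Nfil3 (-0.34), which lost their calls in 7 and in 4 of 15 alternatives. In the liver 0 of 11 tested genes of the list were called, with a median of -0.11, and Hlf had the smallest p (log2 fold change -0.33, edgeR adjusted p = 0.546).

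Of the signals and factors upstream of Cebpb and Cebpd transcription, 6 of 13 tested genes rose in the cells and 1 fell (53.9% called, against 57.7% of all tested genes). Tlr4, the receptor for lipopolysaccharide, went from 28.4, 22.1 and 22.4 CPM to 69.5, 76.0 and 78.6 CPM (log2 fold change 1.62, edgeR adjusted p = 9.22e-07). Socs3, a feedback inhibitor of cytokine signalling, went from 7.57, 8.28 and 9.10 CPM to 34.0, 40.8 and 54.3 CPM (log2 fold change 2.37, edgeR adjusted p = 1.07e-06). The rises of Crem, a factor of cAMP signalling, Rela, a subunit of NF-κB, Spi1, the myeloid factor PU.1, and Il6st, the signal-transducing receptor of interleukin-6, were 0.97, 0.62, 0.48 and 0.44 on the log2 scale. Stat3, which carries the interleukin-6 signal, was the one that fell, by 0.29 on the log2 scale (edgeR adjusted p = 0.0181, named after its values were seen), and this call was lost without control replicate 2 and without control replicate 3. In the liver 0 of 12 tested genes were called, and Crem, at 14.5 and 18.3 CPM, had the smallest p (log2 fold change 0.34, edgeR adjusted p = 0.556).

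Of the kinases and other proteins that act on C/EBP proteins or their translation, 15 were tested in the cells, 5 rose and 5 fell (66.7% called, against 57.7% of all tested genes). Eif2ak2, the kinase PKR, rose from 54.3 to 157 CPM (log2 fold change 1.53, edgeR adjusted p = 4.83e-06), and Rps6ka3, the kinase RSK2, from 50.4 to 85.01 CPM (0.75). Rps6ka1 (RSK1), Mapk3 (ERK1) and Cdk2 fell by 0.65, 0.59 and 0.54 on the log2 scale. Trib1 encodes a pseudokinase that brings C/EBPα to the ubiquitin ligase COP1 for degradation. It rose in the cells from 8.76, 7.42 and 8.41 CPM to 15.9, 16.7 and 20.9 CPM (log2 fold change 1.12, edgeR adjusted p = 6.38e-05).

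Trib1 in the livers read 58.8, 34.2 and 29.0 CPM in controls and 27.7, 22.5 and 21.4 CPM with esculetin, so all esculetin libraries lay below all controls and control replicate 1 stood apart from the rest. Its liver log2 fold change was -0.77 (SE 0.23, unadjusted p = 0.00531, edgeR adjusted p = 0.334), and -0.40 without control replicate 1 (adjusted p = 0.412). No gene of the 16 of this list was called there. The difference of the Trib1 effects, cells minus liver, was 1.85 (SE 0.31, edgeR adjusted p = 0.000347), and it passed in all 18 alternatives.

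Of the liver genes listed as C/EBP targets, 24 of 25 symbols were found and tested in the liver. The symbol not found was G6pc, which stood in the list beside G6pc1. Of the tested genes 0 were called, and 17 of 24 (70.8%) lay above 0, against 46.5% of all tested genes. The median log2 fold change was 0.18, against -0.02 over all tested genes. An unadjusted p under 0.05 was found for 7 of them (29.2%, against 8.37% of all genes). The list was compiled with earlier results of these data known. Cyp7b1, whose rise in these livers was already known, is among these 7 genes and among the 17 above 0. The study reported its rise and did not name it as a C/EBP target. The counts and the median of the list are therefore not independent evidence of a direction. Orm1, an acute-phase protein of hepatocytes, read 453, 554 and 599 CPM in the controls and 886, 659 and 817 CPM with esculetin (log2 fold change 0.56, edgeR adjusted p = 0.305). Orm2 read 4.79, 4.74 and 6.29 against 19.0, 6.62 and 10.7 CPM (log2 fold change 1.21, edgeR adjusted p = 0.274). Cps1, the first enzyme of the urea cycle, read 1688, 1948 and 1519 against 2374, 2271 and 2198 CPM (log2 fold change 0.41, edgeR adjusted p = 0.451).

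For these genes the liver groups did not overlap. Cyp7b1, an oxysterol hydroxylase of bile acid synthesis, read 55.7, 90.6 and 99.2 against 262, 107 and 191 CPM, also without overlap (log2 fold change 1.19, edgeR adjusted p = 0.21). The acute-phase genes Saa1 and Lcn2 had log2 fold changes of 0.97 and 0.87 (edgeR adjusted p = 0.517 and 0.513), with overlapping groups. In Orm1, Orm2, Cyp7b1, Saa1 and Lcn2 esculetin replicate 1 was the highest of the 6 libraries. Only 2 genes of the list passed the filter in the cells, Igf1 (log2 fold change 3.09) and C3 (1.83), and both were called.

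The macrophage list held genes known as targets of C/EBPβ or named with it by the study, some of them from these cells. The whole list was compiled with earlier results of these data known, so its counts are not independent evidence of a direction. In the cells 17 of 25 were tested, 14 rose and 1 fell (88.2% called, against 57.7% of all genes), with a median log2 fold change of 2.03 against -0.01 over all tested genes. Of those that rose, Csf3 (0.0717 CPM in controls and 1.07 with esculetin) and Fabp4 passed the filter only through esculetin libraries. Saa3, which fell, passed it only through controls. The filter thus set the direction of these genes, and they enter the share and the median. Ptgs2, the inducible cyclooxygenase, rose from 19.4, 17.1 and 18.8 CPM to 173, 201 and 168 CPM (log2 fold change 3.29, edgeR adjusted p = 7.04e-09). Ptges, its downstream prostaglandin synthase, rose by 1.64 on the log2 scale. Tnf, a proinflammatory cytokine, rose from 16.1, 16.6 and 16.4 CPM to 94.2, 110 and 131 CPM (log2 fold change 2.77, edgeR adjusted p = 8.03e-08). The chemokine Ccl3 rose from 78.8 to 2009 CPM (4.67), the lipopolysaccharide co-receptor Cd14 from 117 to 953 CPM (3.02) and the lysozyme gene Lyz2 from 638 to 3496 CPM (2.45).

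Cd36, a scavenger receptor for oxLDL, read 3.89, 3.23 and 4.47 CPM in control cells and 10.5, 9.13 and 7.75 CPM with esculetin (log2 fold change 1.23, edgeR adjusted p = 0.000246). Nceh1, a hydrolase of cholesteryl esters, read 52.6, 46.9 and 45.9 against 68.9, 78.1 and 91.9 CPM (log2 fold change 0.72, edgeR adjusted p = 0.000246). Fabp4, a fatty acid carrier, held 3, 4 and 4 counts in the controls and 16, 18 and 30 with esculetin. The one called gene that fell was Saa3, an acute-phase serum amyloid, with 22, 34 and 36 counts against 7, 2 and 4 (log2 fold change -2.44, edgeR adjusted p = 0.00129), named here after its values were seen. In the liver 15 of the list were tested, 0 were called and the median was 0.01.

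In the cells the summed level of the 8 macrophage markers, which include Lyz2, Cd14 and Csf1r of that list, also went up, from 2331 to 2501 CPM in controls to 5660 to 8595 CPM with esculetin. These 3 genes carried most of that sum, Lyz2 and Cd14 with the levels above and Csf1r from 848 to 1654 CPM. Of the other 5 markers, Adgre1 (0.31) and Itgam (0.71) were called higher, and Cd68 (0.21), Fcgr1 (0.12) and Ptprc (-0.27) were not called. Every other marker list summed to at most 3.01 CPM in any cell library. The part of this change in the other values was not tested.

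Granule genes of the Cebpe programme in neutrophils were nearly silent. Only 2 of 13 passed the filter in each table. In the cells these were Mmp9, with 0, 1 and 3 counts in controls and 19, 43 and 24 with esculetin (called higher, edgeR adjusted p = 0.000154), and Prtn3, which was not called. Mmp9 passed the filter only through its esculetin libraries, so the filter set its direction. In the liver 0 of 2 were called, with a median of 0.73. They were Lcn2 (0.87), which also stands in the liver target and macrophage lists, and Prtn3 (0.58). Prtn3 stood at only 0.556 CPM in controls and 0.864 CPM with esculetin. Its controls alone did not pass the filter, which favours a rise, and it enters this median. Of the ribosome assembly genes beside Cebpz, all 18 were tested, and in the cells 2 rose and 6 fell (44.4% called, against 57.7% of all tested genes), with a median log2 fold change of -0.19. Fbl, Wdr12, Rrp9 and Rrp1b fell by 0.62, 0.63, 0.60 and 0.52 on the log2 scale, while Nop58 and Noc3l rose by 0.77 and 0.59. Without esculetin replicate 3 the list held 13 called genes, 2 higher and 11 lower. In the liver 0 of 18 were called and the median was -0.07.

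**Figure D5:**
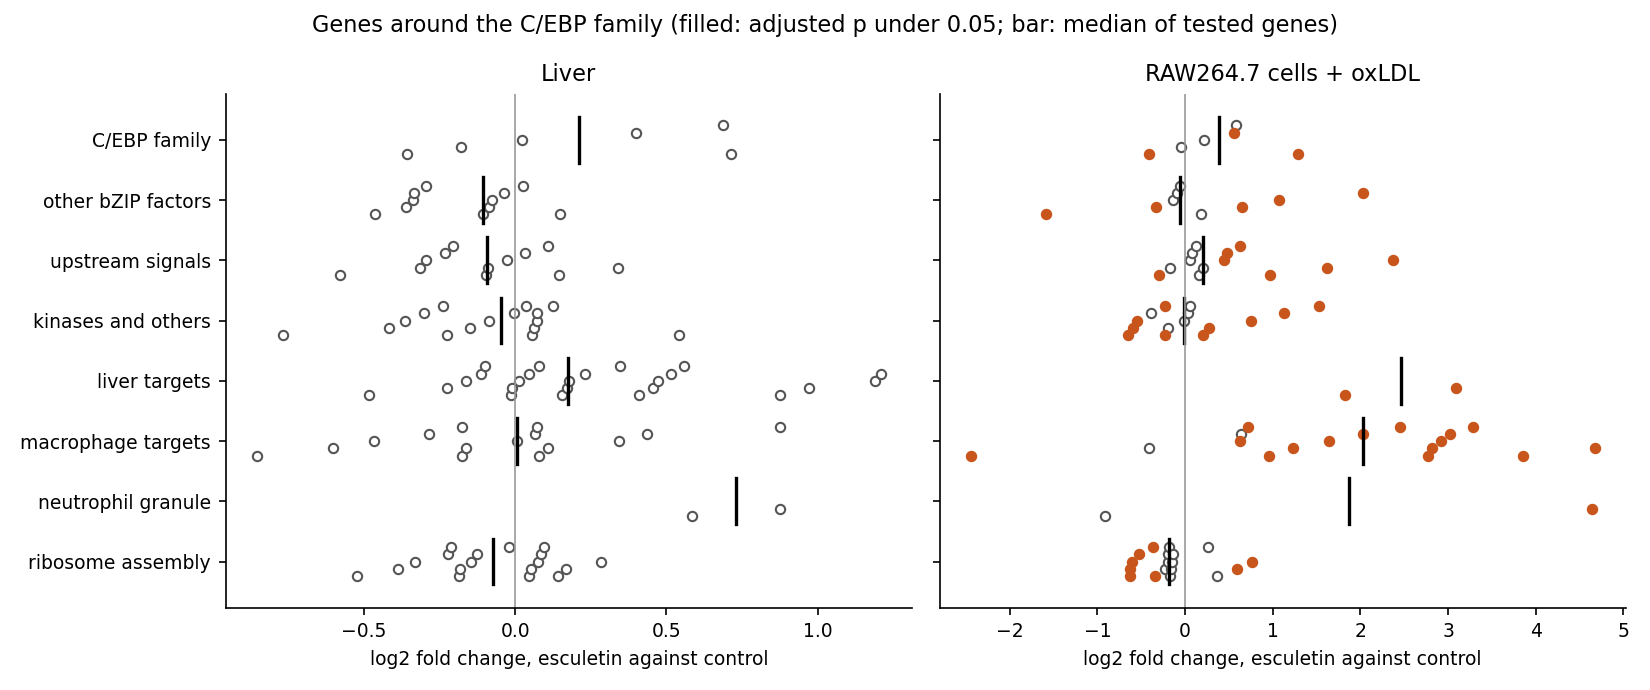
Log2 fold change with esculetin of every tested gene of the family and of 7 lists around it, liver left and cells right on separate axes; filled points were called (edgeR adjusted p under 0.05) and black bars are medians of the tested genes. No liver point is filled, and the macrophage targets in the cells have a median of 2.03.

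Over the 12 libraries the genes whose pattern came nearest to that of Cebpb, by the root-mean-square (RMS) difference of centred log2 CPM among 5382 genes with at least 10 CPM in both tables, were Nrbp1 (0.24), Ormdl1 (0.25), Atg4d (0.28), Snap47 (0.29) and Gabarapl2 (0.29). All of these were called higher in the cells, as were 28.7% of all tested genes, and none in the liver, where 0.0859% were called. They were picked for likeness over these same libraries, which favours a rise in the cells. Cebpd shared Gabarapl2 (0.25) and Snap47 (0.26) as its nearest genes, with Timm8a1 (0.27) after them. Cebpg had closer neighbours, Vps9d1 (0.10), Tbcel (0.10) and Ptges3 (0.13), and so had Cebpz, with Naa50 (0.11), Heatr6 (0.15) and Cops2 (0.16). For Cebpa the nearest genes were farther off, Gstp1 at 0.65, Phyh at 0.67 and Sec14l2 at 0.79. The patterns include the gap between liver and cells, which all libraries of a table share.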

How the data were processed

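RNA was sequenced in 6 liver and 6 RAW264.7 libraries. The authors deposited unnormalised read counts for each gene, which per the study came from 150-base paired reads aligned to GRCm39 with HISAT2 2.2.1 and counted with featureCounts. Strandedness, the handling of multi-mapped reads and the annotation release are not given in the sources used here. Identifiers were matched to GENCODE M39, and 608 of 55357 had no entry (at most 0.0330% of a library). Each table was fitted with edgeR 4.0.16 (R 4.3.3; filterByExpr, TMM, quasi-likelihood F test, two-sided, treatment as the only term), with Benjamini-Hochberg adjustment over all tested genes. Standard errors were taken from the F statistic (fold change on the log2 scale divided by its square root). The difference of effects used a model of 4 groups. Levels per length used the union of exons, and the ratio a prior count of 0.5. Likeness used a prior count of 2 and genes with 10 CPM in both tables. The labels do not say that samples come from separate cultures, so for the cells p-values measure the spread between these samples. No replicates agreed within counting noise. Alternatives were other scalings and filters, DESeq2 1.42.0, limma-voom (limma 3.58.1, also with the thresholds of the study, unadjusted p under 0.05 and fold over 1.5), a replicate block and leaving out each library. The study names limma and does not state voom.

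The members, the 8 lists around and including the family, the 10 marker lists and the rule for named genes were chosen with earlier results of these data known. Lists were compiled from general knowledge and, for macrophage genes, from the study. The rule named all members, Ddit3, up to 6 tested genes of each list with the smallest p, Cd36, Nceh1, Cyp7b1 and Fabp4, and the 5 or 3 genes most like a member. Alternatives for lists and for named genes outside the family were added after seeing the data. The tests across genes were checked on simulated data. Figures were drawn with Python 3.11.15 and matplotlib 3.10.9.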

Additional observations from a re-analysis of the deposited data

Results flagged for a closer look

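Of 43 named genes tested in both tables, 26 had a log2 effect of esculetin that differed between the cells and the liver (edgeR, 4-group model, adjusted p under 0.05). Most of these genes were named for a small p in the same data or for likeness to a member, which favours such differences, so their share is not set against that of all genes. No C/EBP member was among them. Beside the family, the difference (cells minus liver) was 0.96 for Ddit3, 0.81 for Peds1 and -0.98 for Cebpzos. Among other bZIP factors it was 2.45 for Atf3 and -1.79 for Dbp. Among upstream signals it was 2.90 for Socs3, 0.59 for Crem, 0.55 for Rela, 0.49 for Il6st and 0.75 for Spi1. Among kinases and related proteins it was 1.90 for Eif2ak2, 1.85 for Trib1 and -0.63 for Mapk3. Among macrophage genes it was 2.64 for Cd14, 2.30 for Lyz2, 1.11 for Cd36, 0.84 for Nceh1, 2.32 for Fabp4 and -2.48 for Saa3. Among ribosome assembly genes it was -0.71 for Fbl, -0.55 for Wdr12, -0.72 for Rrp9 and 1.07 for Noc3l. For the genes most like Cebpb it was 1.23 for Nrbp1, 0.95 for Ormdl1 and 0.73 for Atg4d. Of these 26, 16 passed in all 18 alternatives. The other 10 lost the call in at least 1. The call was lost for Cebpzos without liver control replicate 2 or liver esculetin replicate 1, for Dbp without liver esculetin replicate 1, for Cd36 under limma-voom, and for Rela without cells control replicate 1, cells esculetin replicate 2 or 3. It was lost for Crem in 5 alternatives, Mapk3 in 5, Rrp9 in 5, Wdr12 in 4, Il6st in 8 and Noc3l in 8, most of them with 1 library left out (liver control replicates 1 and 2, all liver esculetin replicates, cells control replicates 2 and 3, and all cells esculetin replicates in 1 or more of these genes). The experiments also differ in dose, time and background treatment, which cannot be told apart from tissue.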

How the results depend on the processing

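In the liver the count of all called genes (11) was 0 by library size alone, 339 without a filter and 98 under DESeq2. It was 499 under the voom criterion (limma-voom with the thresholds of the study) and 123 with the replicate block. Without 1 library it was 0 to 31 (0 without control replicate 2, esculetin replicate 1 or esculetin replicate 3, 31 without control replicate 3). The count of called members (0) was 2 without a filter (Cebpb and Cebpd), 1 under DESeq2 (Cebpb), 2 under the voom criterion, 1 with the block (Cebpb, adjusted p = 0.00995) and 0 to 0 without 1 library. In the cells all calls (7667) became 5041 and member calls (3) 1 under the voom criterion, and 6518 to 7910 and 1 to 3 without 1 library (1 without control replicate 1). For the difference, member calls (0) were 1 without a filter, 1 with the block (Cebpb, adjusted p = 0.0446) and 0 to 2 without 1 library (2 without liver control replicate 1), and all calls 3368 to 4730.

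Of the lists in the liver, targets had 6, 2, 4 and 3 calls (no filter, DESeq2, voom criterion, block), kinases 1 without a filter, 1 under the voom criterion and 1 with the block, macrophage genes 1 without a filter and 2 under the voom criterion, and granule genes 1 and 1. Without 1 library the targets had 0 to 1 and the other lists 0 to 0. In the cells granule genes had 2 calls without a filter, and under the voom criterion upstream signals had 4, kinases 5 and ribosome assembly genes 5. Without 1 library calls ran from 3 to 5 (other bZIP), 6 to 8 (upstream), 6 to 10 (kinases), 14 to 15 (macrophage) and 6 to 13 (ribosome assembly), and were lowest for other bZIP (3) and kinases (6) without control replicate 2 or 3 or esculetin replicate 2. Estimates that turned sign, none of them called, were liver Cebpa (-0.035 by library size alone, -0.076 without control replicate 1 and -0.014 without esculetin replicate 3, range -0.076 to 0.10 without 1 library), Cebpz in the cells (0.089 without control replicate 1, range -0.11 to 0.089), Cebpe in the cells (-0.11 without esculetin replicate 3, range -0.11 to 0.39) and the difference for Cebpd (0.031 without liver control replicate 1 and 0.013 without cells esculetin replicate 2, range -0.42 to 0.031). The causes were not tested.

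Replicate numbers were shared between groups, but same-numbered samples correlated over 0.1 in some pairs only, so they were not taken as pairs. Levels per length moved with library size alone, but the order of members did not. With the longest transcript as length, Cebpz and Cebpd changed places in control livers and Cebpg and Cebpe in esculetin livers. Counts of 39 to 66 for Cebpa and 32 to 80 for Cebpe in the cells limit their precision.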
